A study of Mus musculus with 2 samples.

Results

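The 7 genes described here are the mouse members of 3 gene families that are grouped as oncofetal: Igf2bp1, Igf2bp2 and Igf2bp3, Lin28a and Lin28b, and Hmga1 and Hmga2. They were chosen by name and not by a rule on measured values, but with earlier results of these data known. They were matched by Ensembl identifier among the deposited genes and transcripts, where they are 7 of 43346 Ensembl genes and carry 29 annotated transcripts. The data are total RNA-seq of intestine from mouse embryos at embryonic day 15.5 (E15.5), strain B6NCrl, without any treatment or genetic change named in the labels. There were 2 libraries, called biological replicates by the labels: replicate 1 from a mixed-sex pool of 78 embryos and replicate 2 from a mixed-sex pool of 62 embryos. Each library was made from 10 ng of RNA with fragments above 200 nucleotides kept. With 1 age and 1 tissue, the design holds no contrast between conditions, so the questions it can answer are how abundant each gene was, in which transcript forms, and how far the pools differed.

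The Igf2bp genes encode RNA-binding proteins that bind and stabilise messenger RNAs, among them Igf2 and Actb transcripts, and that can recognise N6-methyladenosine (m6A). Lin28a and Lin28b encode proteins with a cold shock domain and CCHC zinc knuckles that block the maturation of let-7 microRNAs, and let-7 in turn targets the transcripts of Lin28, Igf2bp and Hmga genes. Hmga1 and Hmga2 encode AT-hook proteins that bind the minor groove of DNA and are abundant in embryonic and many cancer cells. In the gut, these genes are known from fetal and neonatal epithelium and from colorectal cancer.

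The let-7 sequences and the places in the member transcripts that match them are given first, since let-7 is a known link between these families. The matches themselves were not used to choose the genes, but that link is part of why the families are grouped. Mature sequences were taken from RefSeq (build GRCm38.p6). The seed, bases 2 to 8, is in capitals, and 10 of 11 mature names shared the seed GAGGUAG, the exception being let-7j with GAGGUAU.
let-7a-5p: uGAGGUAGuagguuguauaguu
let-7b-5p: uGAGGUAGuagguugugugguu
let-7d-5p: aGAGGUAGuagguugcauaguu
let-7g-5p: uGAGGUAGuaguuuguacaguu
miR-98-5p: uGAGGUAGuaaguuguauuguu
let-7j: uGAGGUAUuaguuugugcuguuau

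A match was an 8-base run CTACCTCA, or a 7-base run CTACCTC or TACCTCA, on the transcript strand of an annotated 3′ untranslated region (UTR), with a 7-base run inside an 8-base run not counted again. One match from each gene is printed with the bases before it, 5′ to 3′ on the gene's strand, on the mm10 assembly, with the matching bases in capitals. The Hmga2 and Lin28b matches are shown because they lie 21 and 36 bases after the stop codon, and the Hmga1 match because it is the gene's single match and is not a full 8-base run.
Igf2bp1, chr11:95961778-95961799, minus strand: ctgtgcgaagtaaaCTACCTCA
Igf2bp2, chr16:22059473-22059494, minus strand: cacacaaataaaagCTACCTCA
Igf2bp3, chr6:49086787-49086808, minus strand: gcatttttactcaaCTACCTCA
Lin28a, chr4:134005189-134005210, minus strand: cacagcctgttgaaCTACCTCA
Lin28b, chr10:45381022-45381043, minus strand: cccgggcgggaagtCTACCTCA
Hmga1, chr17:27563278-27563299, plus strand: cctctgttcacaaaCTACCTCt
Hmga2, chr10:120364224-120364245, minus strand: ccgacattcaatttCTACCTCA

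The libraries held 34406872 and 40669822 estimated counts, of which 2.16% and 1.76% fell on ERCC spike-in RNAs. Levels are given as TPM, the abundance of a transcript after division by its length and scaling to a common total per library, which allows genes to be compared, and detection means 1 TPM or more in each of the libraries. At these depths, 3 counts on a transcript of 1 kb correspond to a TPM of 0.125 and 0.107. The labelled tissue held its markers: 10 of 10 gut epithelium genes and 8 of 8 gut mesenchyme and smooth muscle genes were detected. Pancreas markers were also present, with a summed TPM of 5929 in replicate 1 and 2154 in replicate 2. Of these, 7 of 7 were at least 1.5-fold higher in replicate 1, beside 1.47% of detected genes. In whole tissue, fewer cells of a type and less RNA per cell cannot be told apart.

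Of the 7 genes, 5 were detected and 2, both Lin28 genes, were not, beside 34.6% of all Ensembl genes and 62.7% of protein-coding genes that were detected. The order from high to low was Hmga1, Igf2bp2, Igf2bp3, Igf2bp1, Hmga2, Lin28b and Lin28a in both libraries by the deposited TPM. The detected members spanned from about 31 to 260 TPM, whereas the Lin28 genes lay below 1 TPM. The median detected gene had a mean TPM of 15.5, so all 5 detected members lay above it.

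**Figure D1:**
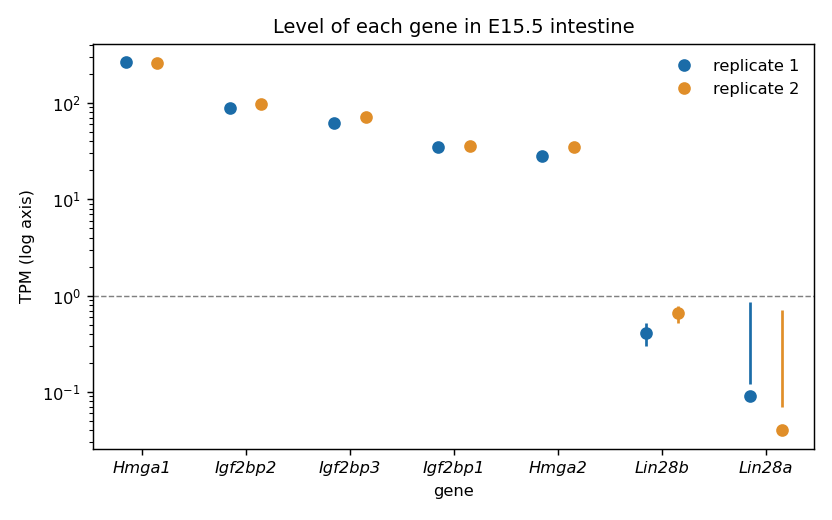
Level of each gene in TPM (log axis) in replicate 1 (blue) and replicate 2 (orange), with the deposited TPM interval as a vertical line where it is wider than the point and the detection limit of 1 TPM as a dashed line. Hmga1 was highest at 262 and 258 TPM, 5 genes lay above the dashed line, and both Lin28 genes lay below it, Lin28a with points under its own interval.

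Among the RNA-binding Igf2bp genes, Igf2bp2 was the most abundant. Igf2bp2 (ENSMUSG00000033581.12, chr16:22059009-22163299) had a TPM of 88.9 in replicate 1 and 96.9 in replicate 2, a mean of 92.9 ± 5.62 (SD, n = 2), from 6969 and 9096 estimated counts. This placed it above 87.7% of detected genes. Igf2bp3 (ENSMUSG00000029814.8, chr6:49085223-49214957) had a TPM of 61.7 and 71.4, a mean of 66.6 ± 6.85, above 82.9% of detected genes. Igf2bp1 (ENSMUSG00000013415.5, chr11:95957163-96005940), also known as the zipcode-binding protein of Actb messenger RNA, had a TPM of 34.9 and 35.7, a mean of 35.3 ± 0.601, above 70.1% of detected genes. The values of the 3 paralogs did not overlap between genes: Igf2bp2 was 1.44-fold and 1.36-fold above Igf2bp3 in the respective libraries, and Igf2bp3 was 1.77-fold and 2.00-fold above Igf2bp1.

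The make-up of the Igf2bp family differed little between the pools. Its summed level was 186 TPM in replicate 1 and 204 TPM in replicate 2. Igf2bp2 made up 47.9% and 47.5% of it, Igf2bp3 33.3% and 35.0%, and Igf2bp1 18.8% and 17.5%. By estimated counts, which are not divided by length, Igf2bp2 made up 36.4% of the family on average.

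The AT-hook genes were unequal. Hmga1 (ENSMUSG00000046711.11, chr17:27556497-27563674) had a TPM of 262 and 258, a mean of 260.2 ± 2.52 (SD, n = 2), above 96.0% of detected genes, and ranked 605 among all genes by mean TPM. Hmga2 (ENSMUSG00000056758.10, chr10:120361275-120476469) had a TPM of 28.1 and 34.55, a mean of 31.3 ± 4.54, above 67.5% of detected genes. Hmga1 was thus 9.31-fold and 7.48-fold above Hmga2, and took 90.3% and 88.2% of the family's summed TPM. Hmga2 and Igf2bp1 were the closest neighbours in the order, with Igf2bp1 higher by 1.24-fold in replicate 1 and 1.03-fold in replicate 2. Their library values did not overlap, but their deposited intervals did in replicate 2 (34.2 to 38.6 for Igf2bp1 and 32.8 to 35.0 for Hmga2), so their order in that library is not separated by the estimate's own error. For any such pair of genes, 2 values against 2 cannot reach an exact two-sided permutation p below 0.333, so no test was made.

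The Lin28 genes were the lowest members, both below 1 TPM, and Lin28a was near the limit of detection. Lin28b (ENSMUSG00000063804.7, chr10:45376620-45486395) had a TPM of 0.41 in replicate 1 and 0.66 in replicate 2, a mean of 0.535 ± 0.177 (SD, n = 2), from 52 and 97 counts. The exact Poisson 95% intervals of these counts, which cover counting error only, were 38.8 to 68.2 and 78.7 to 118. Lin28b was therefore present at a low level, with reads in both pools. Lin28a (ENSMUSG00000050966.5, chr4:134003330-134018841) had a TPM of 0.09 and 0.04 from 7 and 4 counts, with 95% counting intervals of 2.81 to 14.4 and 1.09 to 10.2. Both deposited TPM intervals of Lin28a, 0.122 to 0.864 and 0.0698 to 0.701, lay above the deposited TPM itself, and the posterior mean TPM was 0.45 and 0.35, so its level is known only to be below 1. By the posterior mean, Lin28a was above Lin28b in replicate 1 (0.45 against 0.41) and below it in replicate 2 (0.35 against 0.65). The order of the Lin28 genes thus depends on the estimate used. Most of the Lin28a posterior mean lay on transcripts with 0 counts. Lin28a-201, the transcript that held all of the gene's counts, had a posterior mean TPM of 0.1 and 0.05.

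Over both libraries, 149 counts fell on Lin28b and 11 on Lin28a, a length-scaled ratio of 8.70 with an exact 95% counting interval of 4.72 to 17.8. By the deposited intervals the Lin28 paralogs overlapped in both libraries. Hmga2, the lowest of the detected members, was 68.6-fold and 52.3-fold above Lin28b, and Igf2bp1 was 85.1-fold and 54.2-fold above it. Of the germ cell and pluripotent cell markers, in whose cells Lin28a is best known, 1 of 6 was detected, beside 62.7% of protein-coding genes. Their summed TPM was 2.59 and 2.21. Sall4 was the detected marker at 1.81 and 1.64 TPM. Pou5f1 was at 0.03 and 0.08, Nanog at 0.18 and 0.17, and Dppa3 was listed at 0 in both libraries. The germ cell genes Ddx4 and Dazl were at 0.42 and 0.21 and at 0.15 and 0.11.

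Each detected member differed by less than 1.5-fold between the pools, though Hmga2 and Igf2bp3 differed more than most detected genes did. The ratio of replicate 2 to replicate 1 was computed on TPM + 1 and put on the log2 scale, which dampens changes of low genes. Of the detected members, 0 of 5 were at least 1.5-fold apart, beside 2.23% of detected genes (0.754% higher in replicate 2 and 1.47% higher in replicate 1). With so low a share, 0 of 5 does not set the members apart from other genes. Hmga2 had the largest ratio, 0.29, followed by Igf2bp3 at 0.21, Igf2bp2 at 0.12, Igf2bp1 at 0.03 and Hmga1 at -0.02, while the median over all detected genes was 0.02. The median absolute ratio of detected genes was 0.11, and 88.6% of detected genes had a smaller absolute ratio than Hmga2, 77.3% a smaller one than Igf2bp3 and 10.1% a smaller one than Hmga1. Higher TPM in replicate 2 was seen for 4 of 5 detected members and for 55.2% of detected genes. With 1 value per library, this ratio has no replicate, so no test was made.

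The deposited intervals of the libraries did not overlap for Igf2bp2, Igf2bp3 and Hmga2, which is 3 of 5 detected members, beside 21.3% of detected genes. These shares are not matched for level. The width of such an interval depends on the counts, and all 5 detected members lay above the median detected gene. The 3 of 5 is therefore not read as an excess. For Hmga2 these intervals were 26.4 to 28.6 and 32.8 to 35.0. Such an interval holds estimation error within a library and not the spread between embryos. The spread of all genes between the pools, estimated as a common biological coefficient of variation, was 0.0969. Lin28b, without a pseudocount, was 1.61-fold higher in replicate 2 by TPM, and its counts relative to library total were 1.57-fold higher with an exact 95% counting interval of 1.11 to 2.25. Lin28a had a ratio of such relative counts of 0.481 with an interval of 0.103 to 1.89, which holds 1.

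The size and for Hmga1 the sign of these ratios depended on the scale. Scaled by spike-in counts, the median of all detected genes moved to 0.27, and Hmga1 stood at 0.22, Igf2bp1 and Igf2bp2 at 0.43, Igf2bp3 at 0.48 and Hmga2 at 0.56. Relative to that median, Hmga1 stayed below and the other 4 detected members stayed above. Under this scale 79.9% of the genes at least 1.5-fold apart were higher in replicate 2, against 33.8% on the TPM scale and 23.6% with trimmed mean (TMM) scaling. On TPM + 1, the pancreas markers had a median log2 ratio of -1.44, against -0.02 for Hmga1 and 0.29 for Hmga2, the lowest and highest detected members. The part of the pancreas markers in the members' ratios was not tested.

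**Figure D2:**
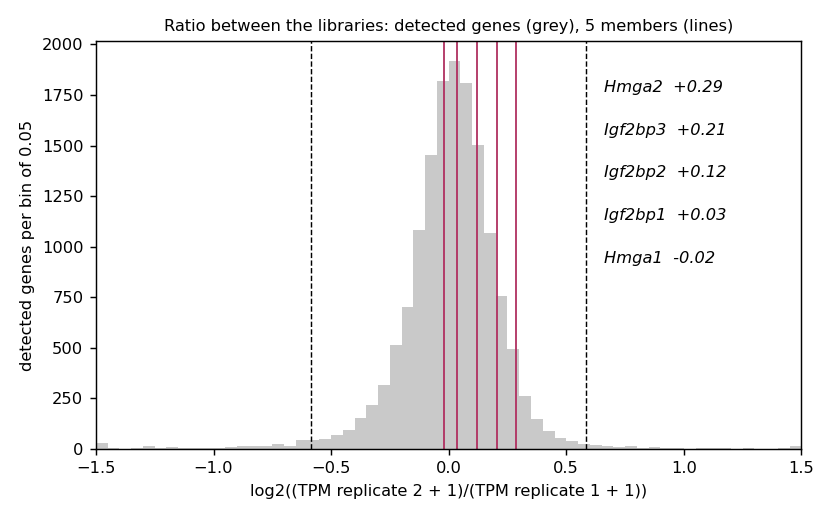
Histogram of the log2 ratio of replicate 2 to replicate 1, on TPM + 1, for all detected genes (grey, values beyond the axis in the end bins), with the 5 detected members as red lines from Hmga1 at -0.02 to Hmga2 at 0.29 and the 1.5-fold limits as dashed lines. All 5 members lie between the dashed lines.

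The transcript tables divide each gene's output among its annotated forms. Igf2bp3, Lin28b and Lin28a were assigned to 1 transcript each, at 100% in both libraries. Igf2bp3 and Lin28b had only 1 form among the deposited transcripts, so their 100% could not come out otherwise. Hmga2-201, the full AT-hook form with a long 3′ UTR, took 99.4% and 98.7% of Hmga2. For Lin28a, the posterior mean version put 21.4% and 14.5% on Lin28a-201, the transcript with the complete coding sequence, so that assignment rests on too few reads to be read.

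Igf2bp1 was mainly 1 long coding transcript. Igf2bp1-201, of 8378 bases, took 82.8% of output in replicate 1 and 91.1% in replicate 2, and 98.7% and 99.3% of the gene's counts. The difference lay in short processed transcripts, which carry no annotated coding sequence. Igf2bp1-205, of 576 bases, took 11.7% in replicate 1 and 0% in replicate 2, from 46.57 and 0 counts, and Igf2bp1-202 took 4.53% and 7.12%. The deposited TPM intervals of Igf2bp1-205 overlapped, 1.03 to 6.99 and 4.6e-05 to 2.39. Its posterior mean share was 11.96% and 2.52%, so its absence from replicate 2 is uncertain. The mean effective length of Igf2bp1 differed accordingly, 6949 and 7597 bases. Its counts relative to library total were 1.10-fold higher in replicate 2 (exact 95% counting interval 1.06 to 1.14). Its TPM, without a pseudocount, was 1.024-fold higher in replicate 2, and its log2 ratio on TPM + 1 was 0.03.

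Igf2bp2 was divided nearly equally between an annotated coding form and a form annotated as a retained intron. Igf2bp2-201, the longest coding transcript, took 42.1% and 45.3%, and Igf2bp2-207 took 43.4% and 47.8%. The second coding form, Igf2bp2-202, took 5.33% and 1.80%. All coding forms together held 47.4% and 47.1% of Igf2bp2 TPM, and all forms annotated as retained introns 52.3% and 52.6%. The label of Igf2bp2-207 was compared with its exons: it has 14 exons, 12 of them identical to exons of Igf2bp2-201, spans 0 whole introns of it, and only 8 of its 3267 bases (99.8% shared) are not in Igf2bp2-201. It lacks 640 bases of Igf2bp2-201. A form of the same class that does span a whole intron, Igf2bp2-206, took 2.07% and 1.11%. The deposited percentages for Igf2bp2-207 therefore rest on reads from bases that the coding form shares almost entirely, and they do not measure intron content.

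Hmga1 was spread over coding forms that differ in 1 short coding stretch. The 3 transcripts with the longer coding sequence (318 or 321 bases) correspond in length to the protein form known as HMGA1a, and the 3 with the shorter one (285 or 288 bases) to the form HMGA1b, which is not the separate gene Hmga1b. A run of 33 coding bases is in every long form and in no short form, at chr17:27559671-27559703 on the plus strand of mm10, and is printed in capitals with the coding bases next to it because reads over it tell the forms apart.
Hmga1 long-form stretch: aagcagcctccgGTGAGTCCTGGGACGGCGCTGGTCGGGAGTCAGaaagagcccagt

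The long forms of Hmga1 held 44.0% of output in replicate 1 and 53.3% in replicate 2, and the short forms 56.0% and 46.8%. In TPM, the long forms had 115 and 138 and the short forms 147 and 121. The order of the forms thus turned between the pools, and their means, 48.6% ± 6.53 and 51.4% ± 6.52 (SD, n = 2), lay within 1 SD of each other. The deposited percentages were estimated on GENCODE M4 models and the coding lengths come from GENCODE M21, and 5 of the 6 Hmga1 transcripts differ in length between them, so the long and short shares carry that limit. Among single transcripts, Hmga1-201 (short) took 51.9% and 42.0%, Hmga1-203 (long) 36.9% and 41.2%, and Hmga1-206 (long) 4.47% and 9.19%. The gene's total moved by 0.02 on the log2 scale while its forms traded places.

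**Figure D3:**
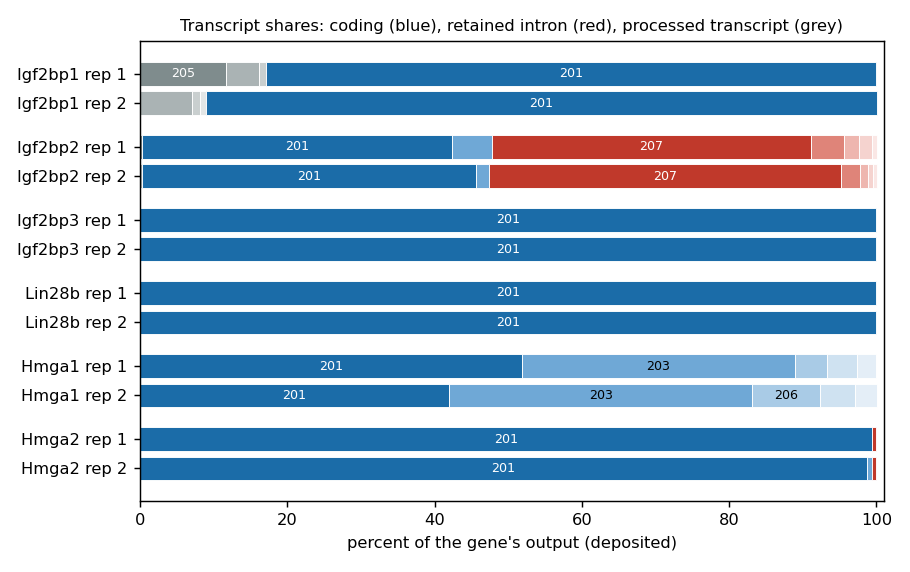
Deposited percent of each gene's output by transcript in each library, with coding forms in blue shades, forms annotated as retained introns in red shades and processed transcripts in grey shades, and the transcript number written in the wider segments. Igf2bp3, Lin28b and Hmga2 are almost 1 colour, Igf2bp2 is divided between Igf2bp2-201 at 42.1% and 45.3% and Igf2bp2-207 at 43.4% and 47.8%, and Hmga1-201 takes 51.9% and 42.0%.

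Some member values share sequence with other genes. Hmga1b (chr11:120762794-120764419), annotated as coding, shares 62.1% of the 31-base words of Hmga1 transcripts and had a TPM of 5.67 and 7.90, so reads of Hmga1 may have been divided with it. Igf2bp3 overlaps Malsu1, a gene of the mitochondrial ribosome on the opposite strand (chr6:49073795-49086751), over 1529 of 4345 exonic bases (35.2%). Malsu1 had a TPM of 56.1 and 59.75. The strand setting of the counting was not given in the sources used here, and without strand the reads of Igf2bp3 and Malsu1 cannot be told apart over that stretch.

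All 7 genes held at least 1 let-7 match of 7 or 8 bases in an annotated 3′ UTR, beside 14.0% of the 13064 other detected coding genes with an annotated 3′ UTR. The members' UTRs were long, from 1177 bases in Hmga1 to 6337 in Igf2bp1, against a median of 892, so genes of like UTR length (within 20%) are the closer comparison. Because of the families' known link to let-7, the counts are a description and were not tested.

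Hmga2 had the most matches, 7 in a 3′ UTR of 2977 bases, or 2.35 per kb against 0.126 per kb over the other genes. They lay 21, 1105, 1258, 1646, 1696, 2554 and 2573 bases after the stop codon, and the first was the full 8-base run. Here and below, each position is that of the base facing base 8 of let-7. In a TACCTCA run this is the unmatched base just before it. Of 1273 genes of like UTR length, 27.7% had a match and 1 (0.0786%) had as many as Hmga2. Lin28b had 5 matches in 4445 bases, of which the 8-base run lay 36 bases after the stop codon and the others at 2410, 2582, 3998 and 4187. Of genes of like length, 0.589% had as many as Lin28b. Igf2bp1 had 5 matches in 6337 bases, 3 of them 8-base runs at 1715, 4136 and 4730 bases, and 1.16% of genes of like length had as many.

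The remaining members had 1 or 2 matches. Lin28a had 2 matches, both 8-base runs, in 2775 bases, as many as 4.00% of genes of like length. Igf2bp2 had an 8-base run and a 7-base run 1313 and 1329 bases after the stop codon, as many as 2.90% of genes of like length. Igf2bp3 and Hmga1 had 1 match each, 548 and 801 bases after the stop codon, and 24.7% and 12.9% of genes of like length had as many. The number of matches in Hmga1 and Igf2bp3 was thus the smallest among the members.

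**Figure D4:**
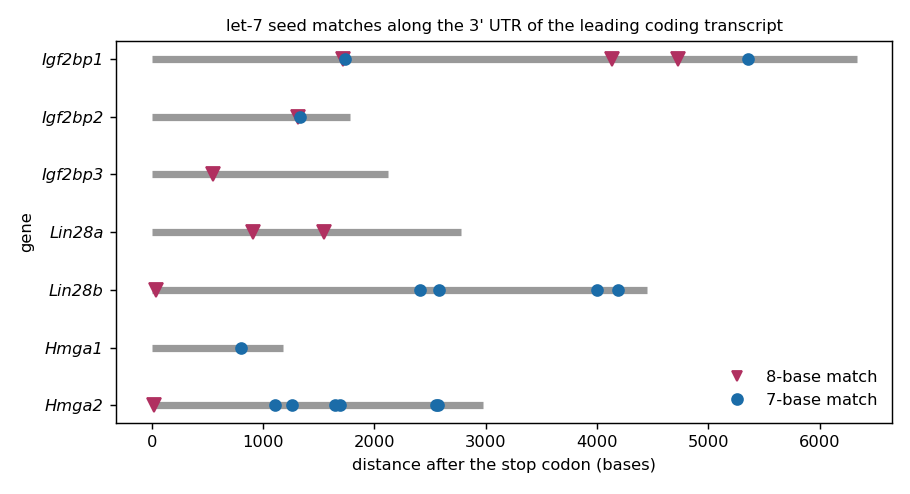
Positions of let-7 seed matches along the 3′ UTR of the leading coding transcript of each gene, in bases after the stop codon, with 8-base matches as red triangles and 7-base matches as blue circles on grey bars that give the UTR length. Hmga2 and Lin28b have an 8-base match within 40 bases of the stop codon, and Hmga1 has a 7-base match only.

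Most member RNA was assigned to forms that carry a match. The share of TPM on transcripts with a match in an annotated 3′ UTR was 82.8% and 91.1% for Igf2bp1, 92.9% and 87.9% for Hmga1, and 99.4% and 99.5% for Hmga2. Igf2bp3 and Lin28b were at 100%, which was fixed, since each has 1 deposited transcript and it carries a match. Lin28a was also at 100%, from its 11 counts. For Igf2bp2 it was 47.4% and 47.1%, since Igf2bp2-207 has no annotated UTR, but that transcript covers the same bases, and 92.9% and 96.0% of Igf2bp2 was on transcripts that cover a match anywhere. Mature let-7 was not measured, since fragments above 200 nucleotides were kept. The let-7 precursor genes matched 10 of 12 entries, all listed at 0 in both libraries. Those entries are hairpins shorter than the fragments kept, so 0 there cannot be read as a level of let-7. Why they were at 0 was not tested.

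The genes that act on let-7 with Lin28, or process it, were present. Of 16 in that list, 16 were detected, with a median TPM of 21.4 and 0 at least 1.5-fold apart between libraries. For this list and those below, the shares to compare are 62.7% of protein-coding genes detected and 2.23% of detected genes so far apart. The lists were chosen with earlier results of these data known, which limits that comparison. The RNA helicase Ddx5 was highest at 214 and 237 TPM, followed by the Dicer cofactor Tarbp2 at 83.8 and 79.8 and the RNA-binding protein Syncrip at 64.1 and 80.8. Tut4, the uridyl transferase that Lin28a recruits to let-7 precursors, had 37.55 and 40.9 TPM. Its levels lay above those of the Lin28 genes in both libraries.

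Among known let-7 targets outside the members, 24 of 25 were detected, with a median TPM of 21.7. The highest were Ccnd2, a D-type cyclin, at 150.3 and 169 TPM, Cdc34, a ubiquitin-conjugating enzyme, at 110.0 and 108, the transcription factor Myc at 82.5 and 90.1, and the GTPase Hras at 88.9 and 77.65. Igdcc3 was the 1 target not detected, at 1.13 and 0.81, and it is named because the count was small. Higher TPM in replicate 2 was seen for 16 of 24, beside 55.2% of detected genes, with a median log2 ratio of 0.07.

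The transcripts known to be bound by Igf2bp proteins covered a wide range of levels, with mean TPM from 0.885 for Ptgs2 to 5660 for Actb. Of 13, 12 were detected, with a median TPM of 56.0. Actb, cytoplasmic actin, had 5371 and 5949 TPM, the imprinted noncoding RNA H19 1101 and 950.3, the growth factor Igf2 792 and 812, and the cell cycle inhibitor Cdkn1c 390.3 and 402. Ptgs2 was the 1 not detected, at 0.77 and 1.00.

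Proteins found with Igf2bp in RNA complexes were all detected, 12 of 12, with a median TPM of 67.2. Ybx1 was highest at 525 and 603 TPM, followed by the poly(A)-binding protein Pabpc1 at 359 and 344, Matr3 at 195 and 236, and the stress granule protein G3bp1 at 136 and 150.2. In this list 11 of 12 were higher in replicate 2, with a median log2 ratio of 0.20, beside 55.2% of detected genes. With spike-in scaling 92.2% of detected genes were higher in replicate 2, so such counts depend on the scale. The genes that write, erase or read m6A, the mark that Igf2bp proteins can recognise, were 13 of 13 detected, with a median of 29.1 TPM. Their highest were the writer subunit Wtap at 90.6 and 99.9, the reader Ythdf2 at 58.1 and 71.4, the eraser Fto at 46.0 and 50.1 and the reader Ythdf3 at 41.0 and 46.1. Higher TPM in replicate 2 was seen for 12 of 13, beside 55.2% of detected genes, with a median log2 ratio of 0.11.

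Other high mobility group genes were more abundant than either Hmga gene in several cases. Of 8, 7 were detected, with a median TPM of 208, and Hmgb4 was listed at 0. The nucleosome-binding genes Hmgn2 and Hmgn1 had 1463 and 1745 TPM and 390.3 and 502 TPM, and the DNA-bending Hmgb1 and Hmgb2 had 857 and 1066 TPM and 213 and 249 TPM. Hmga1 thus lay between Hmgn1 and Hmgb2 in both libraries. In this list 6 of 7 detected genes were higher in replicate 2, beside 55.2% of all detected genes. Their median log2 ratio was 0.25, against 0.29 for Hmga2 and -0.02 for Hmga1.

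The imprinted and fetal growth genes were 16 of 16 detected, with a median TPM of 219 and, besides H19 and Igf2, Mest at 570 and 610 TPM and the glypican Gpc3 at 419 and 506. Relatives of Lin28 with a cold shock domain or CCHC zinc fingers were 9 of 9 detected, with a median of 39.9 TPM. Cnbp, which carries CCHC zinc knuckles, had 821 and 931 TPM, and Carhsp1, with a cold shock domain, had 74.8 and 75.8. The lowest of the 9 was Ybx2, a germ cell relative of Ybx1, at 2.09 and 2.59 TPM from 31 and 45 counts, which is above the Lin28 genes in TPM but rests on fewer counts than Lin28b. In each of these lists, 0 genes were at least 1.5-fold apart between the libraries, beside 2.23% of detected genes.

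**Figure D5:**
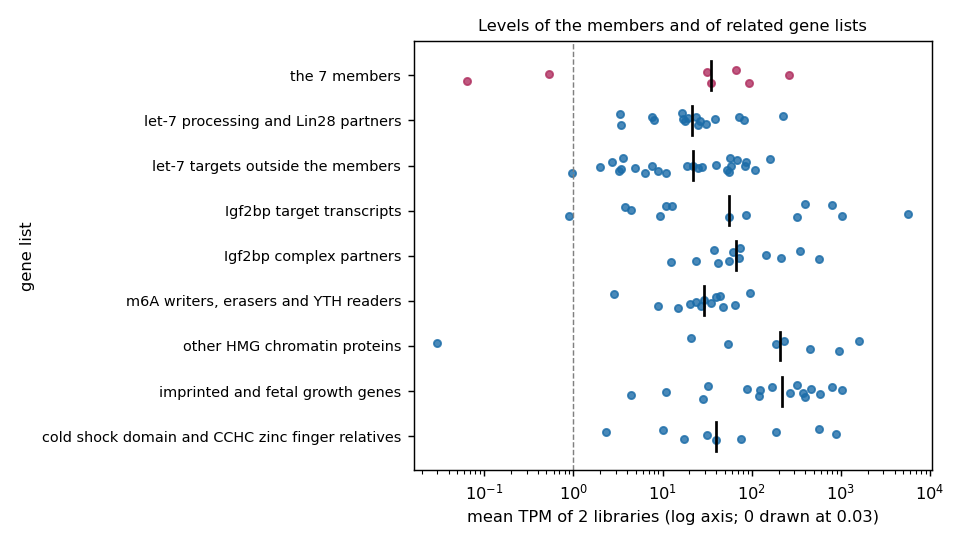
Mean TPM over both libraries (log axis, with Hmgb4, listed at 0, drawn at 0.03) of the 7 members (red) and of the genes of each related list (blue, without the let-7 precursors, which are listed at 0), with the median of each list as a black bar and the detection limit of 1 TPM as a dashed line. The members' points below the dashed line are the Lin28 genes, and the medians of the lists drawn run from 21.4 TPM for let-7 processing to 219 TPM for imprinted and fetal growth genes.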

How the data were processed

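For both libraries the authors deposited values per gene and per transcript, in the layout RSEM writes. The aligner, the quantifier's version and the strand setting were not given in the sources used here. A deposited readme names mm10 as the build and GENCODE M4 as the gene models. The columns hold, per the file headers, expected counts, which the authors estimated and which need not be whole, TPM and FPKM scaled by the authors over all entries with spike-ins included, the percent of a gene's output on each transcript, and interval bounds of TPM, treated as a score because their level is not stated in the deposited files. Symbols, positions and UTRs came from GENCODE M21 on the same assembly, with 42462 Ensembl genes (98%) matched. Hmga1 transcript models differ in length between the releases, except Hmga1-204. Entries named by number or phiX (0.000163% and 0.000150% of counts) were left out.

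Expected counts were rounded for edgeR 4.0.16 (R 4.3.3), which gave the common biological coefficient of variation over 17590 genes and TMM factors and was tested on simulated data. DESeq2 1.42.0 gave alternative size factors. Matches were searched with Python 3.11.15. Nothing was tested between groups, since there is 1 group. The ratio used a pseudocount of 1. Counting intervals were exact at 95% and cover counting error only.

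Named were all 7 members, the 4 highest genes of each list, list genes below 1 TPM in both libraries, list genes at least 1.5-fold apart, transcripts above 5% of a member's output in either library, and genes sharing 10% of a member's 31-base words. Igdcc3, Ptgs2, Ybx2, 2 genes overlapping a member and transcripts below 5% were named outside that rule, after their values were seen. The germ cell and pluripotent cell markers were also named outside it, since the rule did not cover marker lists. The values of 1 list gene that the rule names are not reported here. The members and the lists were chosen with earlier results of these data known.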

Additional observations from a re-analysis of the deposited data

How the results depend on the processing

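Of 199 alternative values, 167 were labelled the same and 32 as moved. Levels and shares were judged against the SD between the libraries, and counts by a limit of 1.5 times. Log2 ratios were judged against the SD of the ratio over all detected genes. A single library always lies within the SD of 2 libraries around their mean. Levels and shares from 1 library were thus bound to be labelled the same and carry no information on stability. A change of direction was looked for only in member ratios past the 1.5-fold limit. No member's ratio was past it, so none could be found. The ratio of Hmga1 went from -0.02 to 0.22 under spike-in scaling. The count of detected members stayed 5 at a TPM limit of 0.5 or 5 and in each library alone, and 0 detected members were 1.5-fold apart under every alternative tried. The 334 detected genes at least 1.5-fold apart became 556 with a pseudocount of 0.1, 212 with TMM counts, 915 without the filter on low values and 104 at 2-fold. With expected counts, Igf2bp2 fell from 47.7% to 36.4% of its family and Hmga1 from 89.3% to 77.0%, since counts are not divided by length. With posterior mean values, Lin28b moved from 88.1% to 56.3% of its family, Lin28a-201 from 100% to 17.97% of Lin28a (and the Lin28a TPM on transcripts with a let-7 match to 18.01%), Hmga2-201 from 99.1% to 98.1% and the Hmga2 let-7 share from 99.44% to 99.40%. The share of Hmga1 on transcripts with a match was 0% when only 8-base runs counted. For Igf2bp2 that share rose from 47.3% to 94.4% when any transcript covering a match counted, an alternative chosen after seeing the data. In single libraries, the family shares were 47.5% to 47.9% for Igf2bp2, 82% to 94.3% for Lin28b and 88.2% to 90.3% for Hmga1, and Hmga1-201 took 42.0% to 51.9%. The ratio between libraries needs both, so no library was left out of it. No paired analysis was possible because there is only 1 group. Depth limits Lin28a, at 7 and 4 counts, and with 2 pools no SD given here is precise.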

Other observations

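Marker lists of other cell types differed in how far they moved between the pools. Cycling cell markers were 8 of 8 detected, with a summed TPM of 1349 and 1391, and enteric nervous system markers 6 of 6, with 125 and 134. Liver markers were 7 of 7 detected, with a summed TPM of 718 and 514, and 1 of 7 was at least 1.5-fold higher in replicate 1. Stomach markers were 2 of 6 detected, with 11.4 and 5.10, and both of those detected were at least 1.5-fold higher in replicate 1. Over all detected genes, 1.47% were that much higher in replicate 1, and 62.7% of protein-coding genes were detected. Among genes on the strand opposite to a member, besides Malsu1, AI413582 had 27.9 and 22.2 TPM and overlaps 96 exonic bases (5.89%) of Hmga1-201, and 1700006J14Rik had 1.43 and 1.19 TPM and overlaps 140 (3.77%) of Hmga2-201.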
